A study of Mus musculus with 4 samples.

Results

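The 26S proteasome is the large protease of the cytosol and nucleus that degrades ubiquitin-tagged proteins, and its subunits are encoded by a set of genes whose symbols begin with Psm. The RNA levels of these genes were examined in mouse hair follicle stem cells (HFSCs), epithelial stem cells of the follicle bulge, after 10 or 48 passages in culture. Of the 24346 gene symbols listed in each library, 47 were taken as proteasome genes. They are all symbols that begin with Psma to Psmg and a number, apart from Psmb8, Psmb9 and Psmb10, which encode the inducible catalytic subunits of the immunoproteasome and are described with the related genes. In the study, HFSCs were sorted as CD49f- and CD34-double positive cells from the dorsal skin of 4-week-old C3H/HeN mice and were passaged in the serum-free medium CnT-PR (M-CnT). No transgene or added agent was named for the sequenced cultures, and the groups differ in passage number: 10p-HFSCs (2 libraries) and 48p-HFSCs (2 libraries). RNA with poly(A) tails was sequenced, and expression is given as FPKM, the number of sequenced fragments scaled by transcript length and by the number of fragments mapped in the library. Nothing states that the 2 libraries of a group came from separate cultures or animals, so p-values measure the spread between these libraries, which may be technical.

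The proteasome is built from a barrel and caps. The 20S core is a stack of alpha and beta rings (Psma and Psmb genes), with the proteolytic sites of Psmb5, Psmb6 and Psmb7 inside. The 19S particle sits on the ends of the core, where its lid removes ubiquitin and its base, a ring of ATPases (Psmc genes) with large scaffold subunits, unfolds the substrate and opens the gate. Other caps can take its place, such as PA28, which admits peptides without ubiquitin and is best known from antigen processing. Dedicated chaperones assemble the rings and then leave. Subunits of one particle are used in fixed proportions, and in stem cells proteasome activity has been followed as part of protein quality control.

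Of the 47 genes, 44 reached an FPKM of 1 in 2 or more libraries and were tested among 11018 such genes. After 48 passages 2 of the 44 rose, Psme1 and Psme2, the alpha and beta subunits of PA28, and 2 fell, the ATPase gene Psmc2 and the lid gene Psmd7 (limma on log2(FPKM + 1), Benjamini-Hochberg adjusted p under 0.05 and a log2 difference of at least 1). That is 4.55% in each direction, against 10.8% of all genes tested called higher and 9.15% called lower, and 9.09% against 19.9% in either direction. The median log2 difference of the 44 genes was 0.023, with 24 positive and 20 negative values, beside -0.034 over all genes tested. The groups did not overlap in 33 genes (75.0%, against 65.9% of all genes tested), of which 16 were higher and 17 lower after 48 passages. By direction these were 36.4% of proteasome genes upward and 38.6% downward, against 31.7% and 34.3% of all genes. At an unadjusted p under 0.05, 10 of the 44 passed, or 22.7% against 37.4%. Without the fold limit 5 were called, or 11.4% against 20.6%, the addition being the chaperone gene Psmd10. These were 3 higher (6.82% against 11.0%) and 2 lower (4.55% against 9.54%). In simulated data of this size, 76.2% of genes with a true log2 change of 3 were called. The shares were 2.39% for a change of 1.5 and 0.149% for a change of 1, which is the fold limit itself. Far fewer genes were changed there than the 19.9% called here, and the adjusted p depends on that share. These rates therefore do not carry over to these data. A proteasome gene that was not called may still have changed by such amounts. Leaving out a library leaves 1 sample in its group, whose spread is assumed to be that of the other group. Without replicate 1 or replicate 2 of 10p-HFSCs no proteasome gene was called, and only 1.59% and 1.65% of all genes were. The log2 differences of the 4 genes were then -1.68 and -1.71 for Psmd7, -1.23 and -1.23 for Psmc2, 1.61 and 1.95 for Psme1, and 1.32 and 1.69 for Psme2. Without replicate 1 of 48p-HFSCs 10 proteasome genes were called (22.7%, against 34.6% of all genes), and without its replicate 2 the count was 4 (9.09% against 16.7%).

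**Figure D1:**
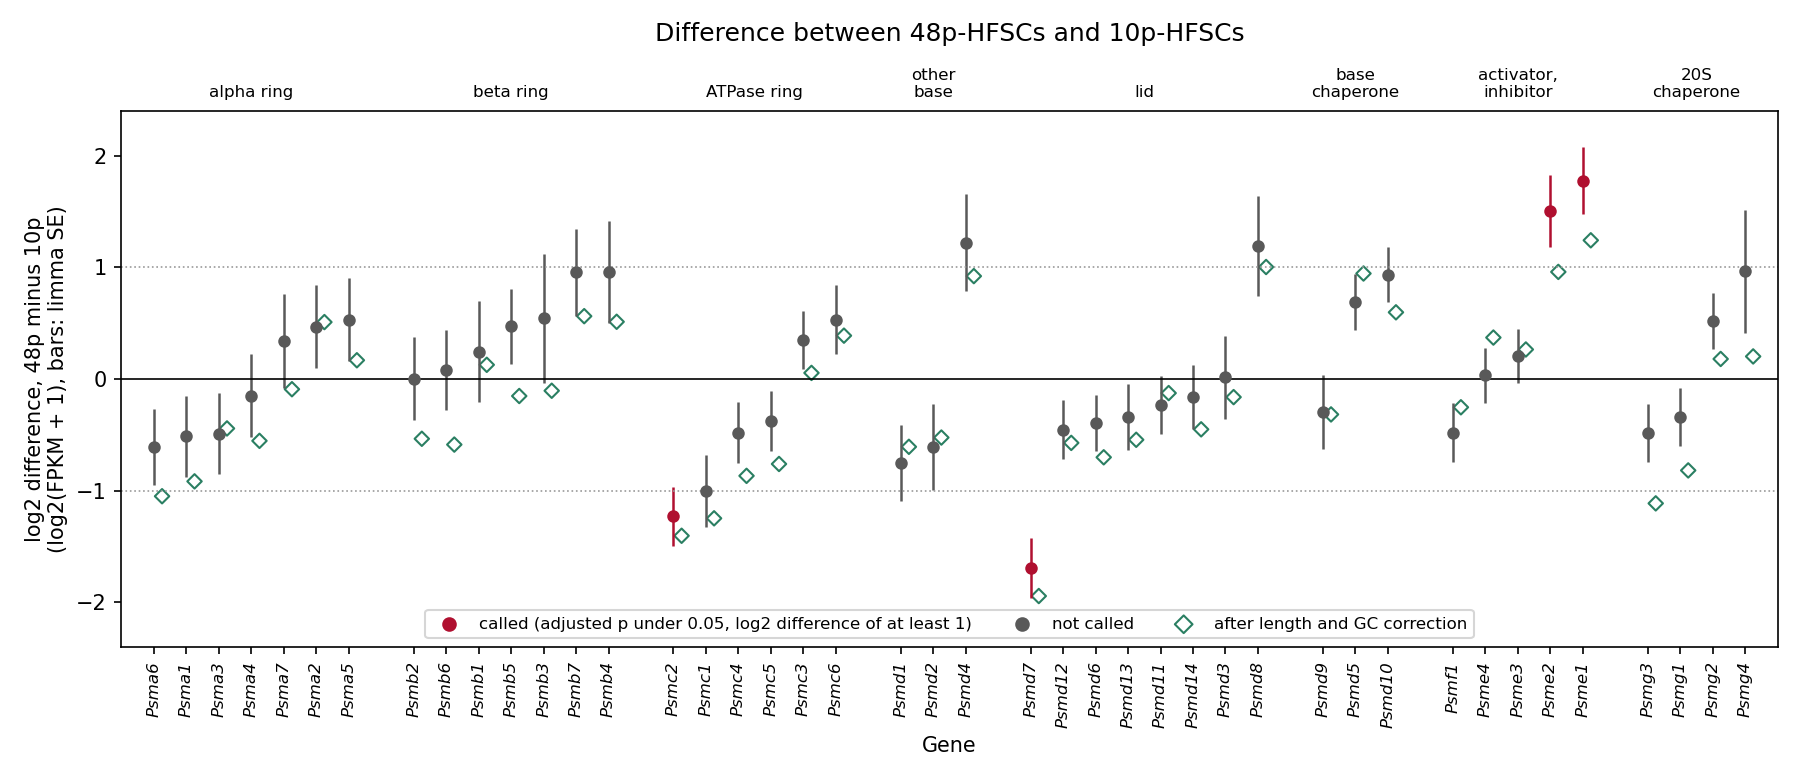
Log2 difference between 48p-HFSCs and 10p-HFSCs (vertical axis, on the log2(FPKM + 1) scale) for 43 proteasome genes tested, grouped by role, with bars for the limma standard error (2 libraries per group) and open diamonds for the value with transcript length and GC content corrected for. The 4 red genes were called; the grey values extend from -1.01 for Psmc1 to 1.22 for Psmd4.

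The summed FPKM of all genes was between 581516 and 719012 in 3 libraries and 1414953 in replicate 2 of 48p-HFSCs. By the spacing of low values this library also had the lowest depth, 46.7% of that of replicate 1 of 10p-HFSCs. The others had 71.6% and 82.9%. This estimate holds only if FPKM was scaled by the fragments mapped, and the absolute depth is unknown. The 9 markers of follicle stem cells and basal keratinocytes summed to 3502 and 2880 FPKM in 10p-HFSCs but 12722 and 7718 in 48p-HFSCs, most of it from Krt5 and Krt14. Among them Itga6 rose (1.77) and Sox9 fell (-1.71) on the log2 scale, Krt15 was at 425 and 18.8 in the 48p-HFSC replicates, and Cd34, Lhx2 and Lgr5 were under an FPKM of 1 in all 4 libraries. By qRT-PCR the study instead reported significantly increased Sox9 and Lhx2 in 48p-HFSCs, and CD34 and Krt15 expression that was maintained. It also found most 10p-HFSCs and 48p-HFSCs to be CD34-immunopositive. Why these results differ from the FPKM values was not tested. The sum of 6 fibroblast markers was 353 and 388 FPKM in 10p-HFSCs but 2.44 and 3.13 in 48p-HFSCs, almost all of it from Vim and Col1a2, with Thy1 at 0. The sum of 5 leukocyte markers was 0.641 and 0.694 FPKM in 10p-HFSCs but 64.3 and 104 in 48p-HFSCs, almost all of it from Cd74, with Cd3e and Tyrobp at 0 and Ptprc under 1. The sum of 3 endothelial markers was 0.172 to 2.38 and that of 3 melanocyte markers 0.297 to 10.8, with the highest melanocyte value, mostly Tyr, in replicate 2 of 48p-HFSCs and Dct at 0. The part of these differences in the proteasome results was not tested. Fewer cells of a type and less RNA per cell cannot be told apart in such bulk samples.

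Proteasome RNA was abundant in both groups. The 47 genes together summed to 6045 and 6338 FPKM in 10p-HFSCs, compared with 5654 and 9021 in 48p-HFSCs. As a share of the summed FPKM 10p-HFSCs had 1.04% and 0.881%, and 48p-HFSCs had 0.849% and 0.638%. The replicates of 48p-HFSCs thus lay on either side of 10p-HFSCs in level, and both lay below in share. Relative to the 10p-HFSC mean, the median log2 difference of the tested genes was -0.26 in the first and 0.27 in the second replicate of 48p-HFSCs. Of the genes that failed the filter, Psma8, an alpha subunit of the testis, was listed at 0 in all libraries. Psmb11, the beta subunit of the thymus, was at 0.0121 and 0.0169 FPKM in 10p-HFSCs versus 0.0146 and 0 in 48p-HFSCs. Psme2b, a copy of Psme2, was listed at 0 except for 0.660 in replicate 1 of 48p-HFSCs. One further symbol, Psmc3ip, carries the prefix but encodes Hop2, a meiotic recombination factor and no proteasome subunit. It was at 8.89 and 9.22 FPKM in 10p-HFSCs versus 11.0 and 16.2 in 48p-HFSCs (log2 difference 0.51, limma adjusted p = 0.26).

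**Figure D2:**
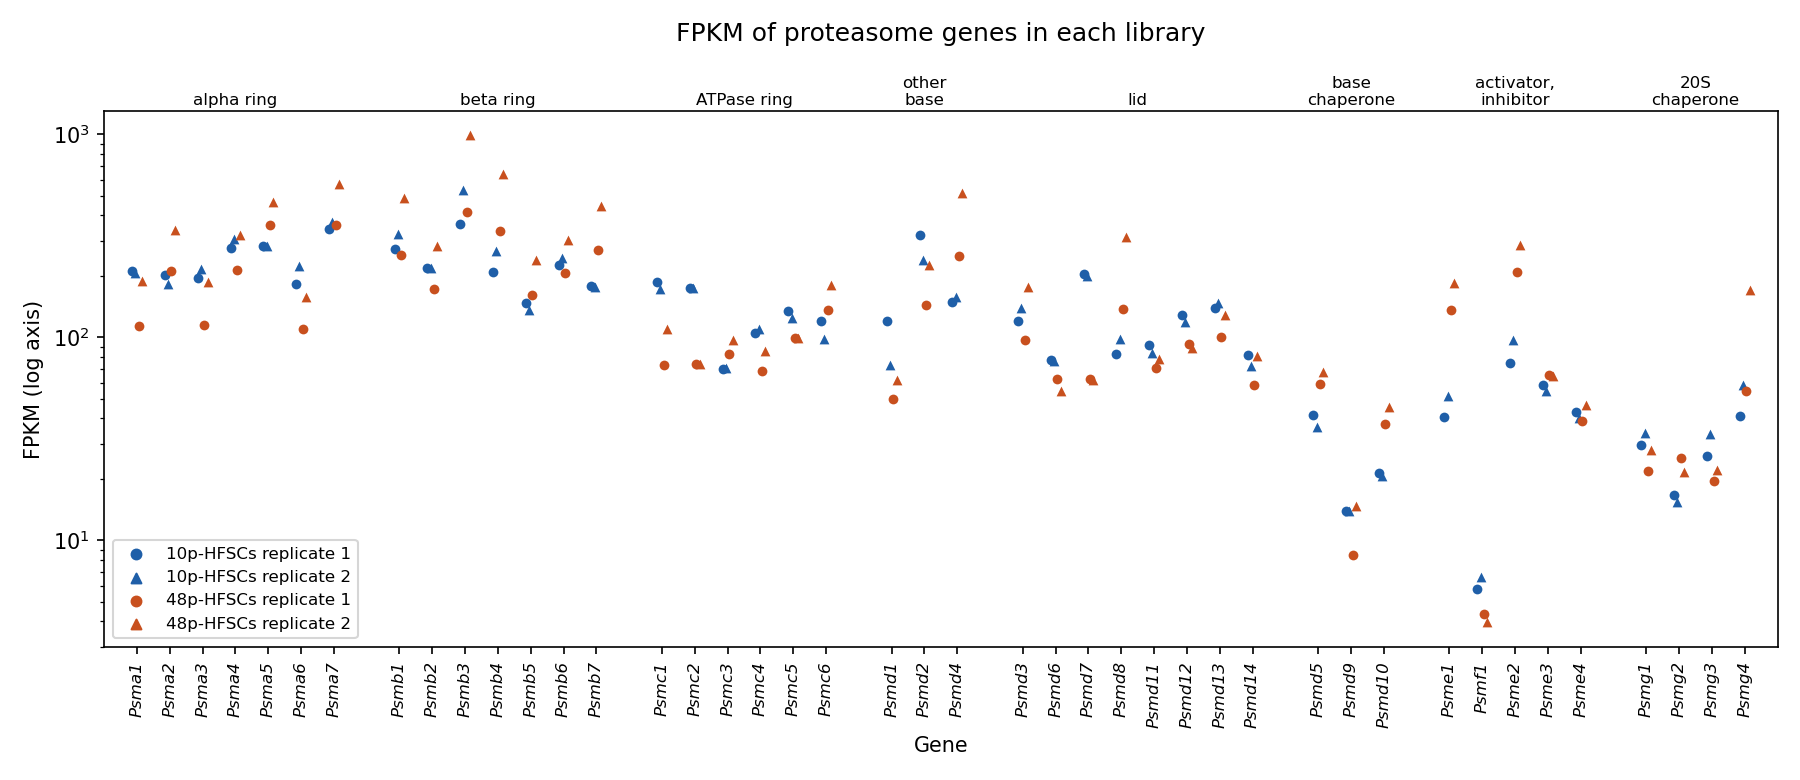
FPKM (vertical log axis) of 43 proteasome genes in each of the 4 libraries, grouped by role. The 20S core subunits (alpha and beta rings) lie between 110 and 997 and Psmf1 is lowest. Orange triangles mark replicate 2 of 48p-HFSCs.

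The 14 constitutive subunits of the 20S core were all tested, and none was called. In the alpha ring, which forms the gate of the barrel, the median log2 difference was -0.15 over 7 genes, 3 of them positive. The highest was that of Psma5, at 282 and 281 FPKM in 10p-HFSCs versus 358 and 465 in 48p-HFSCs (0.53, standard error 0.37, limma adjusted p = 0.34). The lowest was that of Psma6, at 183 and 225 FPKM in 10p-HFSCs versus 110 and 159 in 48p-HFSCs (-0.61, standard error 0.34, adjusted p = 0.24 by limma). Neither gene's groups overlapped, although the members of one ring lay on opposite sides of 0. Psma6 was called lower with rescaling to TPM (-1.19), quantile normalization (-1.01) or the length and GC correction (-1.05), so its call depended on the scaling.

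In the beta ring the 7 constitutive subunits all had positive log2 differences, from 0.0043 for Psmb2 to 0.96 for Psmb4, with a median of 0.47. The positive median did not hold under every scaling: it was -0.11 with TPM and -0.11 after the length and GC correction. Nor did both replicates of 48p-HFSCs share it. Relative to the 10p-HFSC mean, the median of the ring was -0.089 in replicate 1 and 0.76 in replicate 2. The transcripts of this ring had a median length of 899 bases, against 3013 over all genes tested. Psmb5, the chymotrypsin-like subunit that proteasome inhibitors bind, was at 148 and 137 FPKM in 10p-HFSCs versus 162 and 241 in 48p-HFSCs (0.47, standard error 0.34, limma adjusted p = 0.35). Psmb6, the caspase-like subunit, was at 228 and 248 FPKM in 10p-HFSCs versus 209 and 302 in 48p-HFSCs (0.078, standard error 0.36, limma adjusted p = 0.89). Psmb7, the trypsin-like subunit, was at 179 and 178 FPKM in 10p-HFSCs versus 270 and 446 in 48p-HFSCs (0.95, standard error 0.39, limma adjusted p = 0.13). The groups of Psmb5 and Psmb7 did not overlap, and those of Psmb6 did. At the ends of the range, Psmb4 was at 210 and 265 FPKM in 10p-HFSCs versus 333 and 635 in 48p-HFSCs (limma adjusted p = 0.18). Psmb2 was at 220 and 221 FPKM in 10p-HFSCs versus 173 and 283 in 48p-HFSCs (limma adjusted p = 0.99), so that its 48p-HFSC libraries enclosed the others. Without replicate 1 of 48p-HFSCs, Psmb4 (1.43) and Psmb7 (1.32) would be called higher, while without its replicate 2 their values were 0.50 and 0.59 and not called. Psmb5, Psmb6 and Psmb7 have pseudogenes that resemble their transcripts, and how reads mapping to several places were counted is not stated, so their values are uncertain to that extent.

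Of the 17 Psmc and Psmd genes of the 19S particle, 12 were lower in mean, compared with 5672 of the 11018 genes tested. The median log2 difference of the 17 was -0.38, and both genes that fell are among them. Adrm1 and Shfm1, listed with the other subunits and bound factors, are not counted here. Psmd7 encodes Rpn8, the lid subunit that pairs with the deubiquitinase Rpn11, and lies on chromosome 8 (GRCm38, 107580381 to 107588464). It was at 205 and 201 FPKM in 10p-HFSCs versus 62.7 and 61.5 in 48p-HFSCs (0.305 times the 10p-HFSC mean). On the log2 scale it fell by 1.70, with a standard error of 0.27 (limma adjusted p = 0.010). The replicates were nearly equal in both groups, and the groups were far apart. The 585 genes tested on chromosome 8 had a median log2 difference of -0.61, and its part in the value of Psmd7 was not tested. The other 7 lid genes of the Psmd series had log2 differences from -0.45 for Psmd12 to 1.19 for Psmd8, none of them called. A further lid subunit, Sem1, is listed as Shfm1 and is described with the related genes. Psmd8, which encodes the lid subunit Rpn12, was at 83.1 and 97.9 FPKM in 10p-HFSCs versus 138 and 311 in 48p-HFSCs (limma adjusted p = 0.11). Its log2 difference was 1.78 with a call without replicate 1 of 48p-HFSCs, and 0.61 without a call without replicate 2. Psmd14, which encodes Rpn11 itself, was at 82.3 and 72.0 FPKM in 10p-HFSCs versus 58.2 and 80.9 in 48p-HFSCs (-0.16, limma adjusted p = 0.71). The difference between Psmd7 and its partner Psmd14 was not tested.

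In the base, Psmc2 (chromosome 5, GRCm38, 21785283 to 21803787), 1 of the 6 ATPase genes, was at 174 and 175 FPKM in 10p-HFSCs versus 73.8 and 73.7 in 48p-HFSCs. Its log2 difference was -1.23 (standard error 0.27, limma adjusted p = 0.027), or 0.423 times the 10p-HFSC mean, and the replicates again nearly coincided. The 705 genes tested on chromosome 5 had a median log2 difference of -0.33, and its part in the value of Psmc2 was not tested. Psmc1 was at 188 and 174 FPKM in 10p-HFSCs versus 72.9 and 110 in 48p-HFSCs, with a log2 difference of -1.01 that did not pass (standard error 0.32, limma adjusted p = 0.079). It was called lower with TPM (-1.59), quantile normalization (-1.36) or the length and GC correction (-1.25). At the other end of the ring, Psmc6 was at 120 and 98.6 FPKM in 10p-HFSCs versus 137 and 181 in 48p-HFSCs (0.53, limma adjusted p = 0.26). The 6 ATPases, which are used in equal number, thus had log2 differences from -1.23 to 0.53. Among the remaining base genes of the Psmd series, Psmd1, which encodes the scaffold subunit Rpn2, was at 121 and 72.9 FPKM in 10p-HFSCs versus 49.5 and 61.7 in 48p-HFSCs (-0.76, limma adjusted p = 0.16). Psmd4, which encodes the ubiquitin receptor Rpn10, was at 150 and 158 FPKM in 10p-HFSCs versus 253 and 515 in 48p-HFSCs (1.22, standard error 0.44, limma adjusted p = 0.10). Its groups did not overlap, but its 48p-HFSC replicates differed from each other by 1.03 on the log2 scale. Without replicate 1 of 48p-HFSCs the log2 difference of Psmd4 was 1.74 and was called, and without replicate 2 it was 0.71 and was not.

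Since each library holds both particles, their balance can be read within a library, where a scaling of the whole library nearly cancels. Medians were taken on the log2(FPKM + 1) scale and their difference was turned back into a ratio. Adrm1 and Shfm1 were again left out of the 19S particle. The median of the 17 genes of the 19S particle was 56.2% and 50.9% of that of the 14 genes of the 20S core in the 10p-HFSC libraries. In the 48p-HFSC libraries it was 39.1% and 29.8%. On the log2 scale the 10p-HFSC ratio was -0.90 ± 0.10 (SD, n = 2) and the 48p-HFSC ratio -1.55 ± 0.28 (SD, n = 2), a difference of -0.65. Both 48p-HFSC libraries lay below both 10p-HFSC libraries, which in an exact two-sided permutation test of 2 against 2 gives p = 0.333, the smallest p it allows, so no significance can be claimed. The core level itself was 216 and 237 FPKM in 10p-HFSCs versus 214 and 328 in 48p-HFSCs, and the 19S level was 121 and 120, then 82.8 and 96.9. After the length and GC correction the 10p-HFSC ratios were 49.4% and 47.7% and the 48p-HFSC ratios 38.6% and 28.7%, a log2 difference of -0.55. Across the 31 subunits of both particles, the log2 differences between groups had an SD of 0.69, against 0.24 for the differences between the replicates of 10p-HFSCs and 0.36 for those of 48p-HFSCs. Over all genes tested the same SDs were 1.19, 0.39 and 0.76. The levels of the subunits within a library also spread further after 48 passages, with an SD on the log2 scale of 0.65 and 0.75 in 10p-HFSCs versus 0.88 and 1.15 in 48p-HFSCs. Over all genes tested these SDs were 1.96 and 2.01 versus 1.94 and 2.31, so that replicate 2 of 48p-HFSCs was the widest there too.

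**Figure D3:**
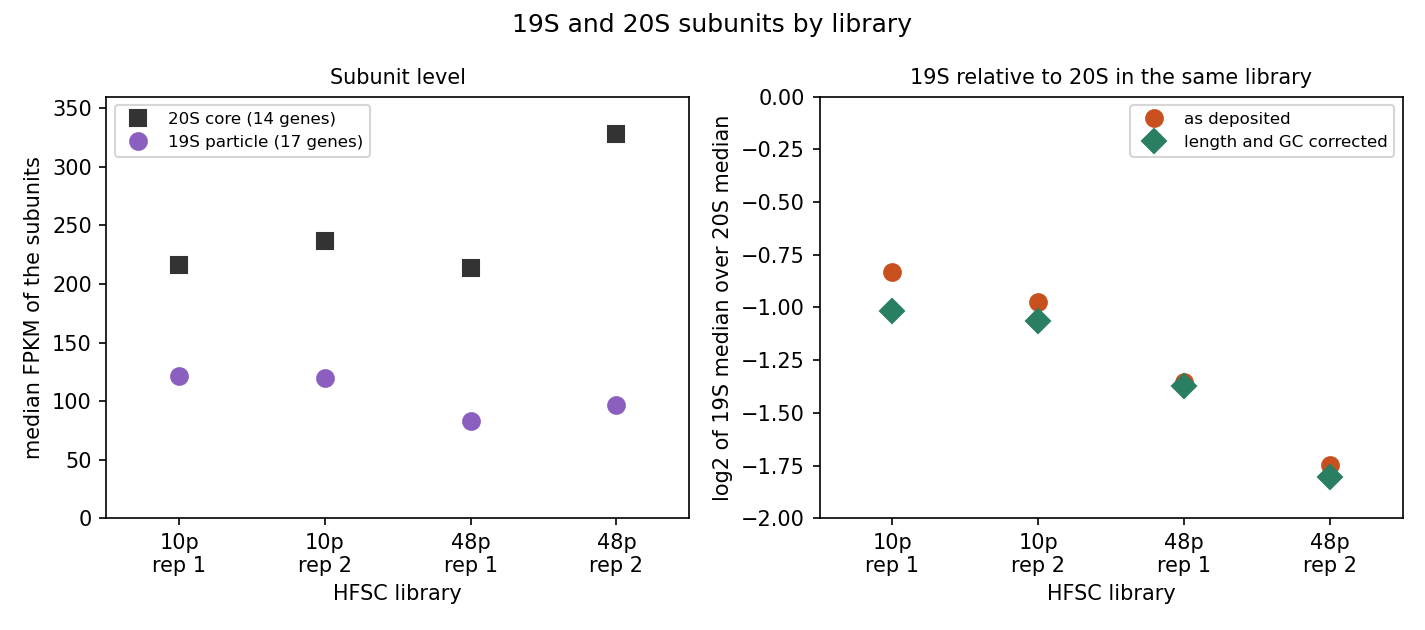
Left, median FPKM of the 14 genes of the 20S core (squares) and the 17 genes of the 19S particle (circles) in each library, on an axis from 0. Right, log2 of the 19S median over the 20S median in the same library, as deposited (circles) and after length and GC correction (diamonds), with both 48p-HFSC libraries below both 10p-HFSC libraries.

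The activators gave the only proteasome genes that rose. Psme1 encodes PA28 alpha and lies on chromosome 14 (GRCm38, 55578123 to 55581529). It was at 40.5 and 51.6 FPKM in 10p-HFSCs versus 137 and 186 in 48p-HFSCs, or 46.1 ± 7.9 against 161 ± 34.6 (SD, n = 2), which is 3.498 times the 10p-HFSC mean. On the log2 scale it rose by 1.78, with a standard error of 0.30 (limma adjusted p = 0.013), the highest value among the proteasome genes tested. Psme2 encodes PA28 beta, which joins PA28 alpha in one ring, and lies beside Psme1 (chromosome 14, 55587441 to 55591113). It was at 75.1 and 97.3 FPKM in 10p-HFSCs versus 211 and 284 in 48p-HFSCs (2.87 times the 10p-HFSC mean). On the log2 scale it rose by 1.51, with a standard error of 0.33 (limma adjusted p = 0.027). In both genes the lower 48p-HFSC library was more than 2-fold above the higher 10p-HFSC library. Set against the median of the 31 subunits in the same library, Psme1 went from -2.14 and -1.76 on the log2 scale in 10p-HFSCs to 0.25 and -0.018 in 48p-HFSCs, so that its level per length came to that of a typical subunit. For Psme2 the same values were -1.25 and -0.84, then 0.87 and 0.60. The call of Psme2 was lost with TPM (0.93, limma adjusted p = 0.082), under the fold limit with the length and GC correction (0.96), and without replicate 2 of 48p-HFSCs (1.29, limma adjusted p = 0.056). Psme1 remained called in these settings, with log2 differences of 1.201, 1.24 and 1.56. The 372 genes tested on chromosome 14 had a median log2 difference of 0.44, and its part in these values was not tested. Psme2 shares sequence with Psme2b, between which reads could be split.

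The other caps and the inhibitor had log2 differences of -0.48 to 0.21 and were not called. Psme3, which encodes the nuclear PA28 gamma, was at 58.2 and 54.6 FPKM in 10p-HFSCs versus 65.4 and 64.8 in 48p-HFSCs (0.21, limma adjusted p = 0.57). Psme4, which encodes PA200, an activator tied to histone degradation, was at 42.8 and 40.2 FPKM in 10p-HFSCs versus 38.6 and 46.6 in 48p-HFSCs (0.031, limma adjusted p = 0.94). Psmf1, which encodes PI31, was the least expressed regulator, at 5.74 and 6.63 FPKM in 10p-HFSCs versus 4.32 and 3.96 in 48p-HFSCs (-0.48, limma adjusted p = 0.24). Of the 5 caps and inhibitors tested, 2 therefore rose and 3 did not pass, and the log2 differences of the PA28 alpha and beta genes were the 2 that exceeded 1.

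The assembly chaperones were mostly expressed at lower levels than the subunits they bring together, at an FPKM of 8.44 to 67.4 for those of the 19S base and of 15.5 to 171 for those of the 20S core. Among the former, Psmd10, which encodes gankyrin, was at 21.5 and 20.8 FPKM in 10p-HFSCs versus 37.7 and 45.5 in 48p-HFSCs. The log2 difference was 0.93, with a standard error of 0.25 (limma adjusted p = 0.048). It passed the p limit but not the fold limit. It reached 1.07 with a call without replicate 1 of 48p-HFSCs, and no longer passed the p limit without replicate 2 (0.80), with TPM (0.37) or with the length and GC correction (0.60). With no filter, with a filter on mean FPKM or with a constant variance prior the limma adjusted p was 0.058, 0.052 and 0.059. Psmd5 was likewise higher in both 48p-HFSC libraries, at 59.2 and 67.4 against 41.5 and 36.2 (0.69, limma adjusted p = 0.11), and Psmd9 was at 14.0 and 14.0 FPKM in 10p-HFSCs versus 8.44 and 14.8 in 48p-HFSCs (-0.30, limma adjusted p = 0.55). Of the chaperones of the core, Psmg4, which works with Psmg3 on the alpha ring, was at 41.2 and 58.4 FPKM in 10p-HFSCs versus 54.7 and 171 in 48p-HFSCs (0.97, standard error 0.55, limma adjusted p = 0.25). Replicate 2 of 48p-HFSCs alone stood high, and its log2 difference was 1.78 with a call without replicate 1, but 0.15 without replicate 2. Psmg3 was at 26.2 and 33.3 FPKM in 10p-HFSCs versus 19.6 and 22.2 in 48p-HFSCs (-0.48, limma adjusted p = 0.23), and was called lower after the length and GC correction (-1.12). Psmg1 and Psmg2, whose products form the other chaperone pair, had log2 differences of -0.34 and 0.52. The 2 members of each pair thus lay on opposite sides of 0, without passing the test.

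The differences of the proteasome genes went weakly with transcript length. Over the 44 tested genes, which share their libraries, Spearman's rho with length was -0.254 for the log2 difference between groups and -0.253 for that between the replicates of 48p-HFSCs. After the length and GC correction it was 0.114 for the difference between groups. The correction lowered the median of the core subunits from 0.29 to -0.13 and that of the 19S subunits from -0.38 to -0.55.

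Many proteasome genes are under the control of Nfe2l1 (also NRF1 or TCF11), a factor that is stabilised when proteasome capacity falls and binds antioxidant response elements in their promoters. Nfe2l1 was at 41.2 and 37.7 FPKM in 10p-HFSCs versus 110 and 110 in 48p-HFSCs, with an increase of 1.45 on the log2 scale (standard error 0.25, limma adjusted p = 0.013). It rose in the deposited scaling, but not with TPM (0.88, limma adjusted p = 0.19). Its relative Nfe2l2 (NRF2), the oxidative stress factor, was at 52.5 and 35.5 FPKM in 10p-HFSCs versus 61.4 and 22.8 in 48p-HFSCs (-0.20, limma adjusted p = 0.79), with groups that overlapped. The factors themselves are activated at the level of protein, which was not measured here. In the 250 bases before each RefSeq start of 39 proteasome genes for which the sequence was given (GRCm38.p6), the element core TGACNNNGC was searched on both strands. It was found in 5 genes, or 12.8%, against 11.5% of the 27025 genes with such a sequence and 14.2% of those tested, namely in Psmb5, Psmb6, Psmc6, Psmd9 and Psmd12. None of the 5 was called. The letters CCGGAAG, an ETS family site, were found in 33.3% of the proteasome genes against 7.83% of all genes and 17.0% of the genes tested. The STAT site TTCNNNGAA was found in 2.56% against 8.13% and 7.09%. Any of these motifs may overlap another, and a match is only a run of letters. No sequence was given for Psma8, Psmb1, Psmb2, Psmb7, Psmc3, Psmd3, Psmd7 and Psmg2.

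Shown next are the parts of these windows that hold no annotated exon, for the catalytic subunits with the element core and for the genes that rose. Each is RefSeq sequence of GRCm38.p6, 5′ to 3′ on the strand of the gene, and capitals mark a match to TGACNNNGC. For Psmb5 (chr14:54618023-54618245, minus strand, 223 bases) the run ends 27 bases before the RefSeq start, for Psmb6 (chr11:70525107-70525356, plus strand, 250 bases) at that start, and for Psme2 (chr14:55591114-55591351, minus strand, 238 bases) 12 bases before it. For Psme1 (chr14:55578249-55578359, plus strand, 111 bases) it is the longest stretch free of exons, which ends 134 bases before the RefSeq start.
Psmb5: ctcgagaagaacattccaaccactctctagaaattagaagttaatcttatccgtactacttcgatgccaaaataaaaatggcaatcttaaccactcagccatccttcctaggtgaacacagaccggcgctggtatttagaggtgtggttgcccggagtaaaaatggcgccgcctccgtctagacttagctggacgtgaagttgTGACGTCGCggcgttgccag
Psmb6: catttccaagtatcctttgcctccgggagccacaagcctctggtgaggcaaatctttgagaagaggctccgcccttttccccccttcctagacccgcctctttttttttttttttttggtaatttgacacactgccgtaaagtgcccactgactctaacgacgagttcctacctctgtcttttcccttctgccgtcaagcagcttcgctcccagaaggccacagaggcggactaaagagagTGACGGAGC
Psme1: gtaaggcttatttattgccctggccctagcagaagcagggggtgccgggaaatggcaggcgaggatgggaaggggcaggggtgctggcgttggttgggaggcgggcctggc
Psme2: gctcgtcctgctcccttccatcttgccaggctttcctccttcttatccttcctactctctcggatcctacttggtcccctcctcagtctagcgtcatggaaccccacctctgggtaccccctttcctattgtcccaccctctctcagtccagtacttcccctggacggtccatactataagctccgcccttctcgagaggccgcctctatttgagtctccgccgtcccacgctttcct
The matches lie near the downstream end in both catalytic genes, as TGACGTCGC in Psmb5 and TGACGGAGC in Psmb6. The stretches of Psme1 and Psme2, the genes that rose, hold no capitals, that is, none of these letters. That of Psme1 lies inside the gene as GENCODE places it (from 55578123), so the sequence before that start is not shown.

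Of 38 further genes of the system listed by function, 37 were found and 36 were tested, and 2 were called higher and 1 lower (8.33% in all, against 19.9% of all genes tested). The inducible catalytic subunits of the immunoproteasome, the usual partners of PA28, were far below their constitutive counterparts. Psmb8 was listed at 0 in 3 libraries and at 0.0669 in replicate 2 of 10p-HFSCs, and was not tested. Psmb9 was at 2.996 and 3.39 FPKM in 10p-HFSCs versus 2.64 and 1.91 in 48p-HFSCs (-0.37, limma adjusted p = 0.36). Psmb10 was at 9.25 and 13.9 FPKM in 10p-HFSCs versus 16.9 and 14.6 in 48p-HFSCs (0.44, limma adjusted p = 0.33). None of these was called, while the constitutive counterparts Psmb5, Psmb6 and Psmb7 were at 137 to 446 in every library. Shfm1, which encodes the lid subunit Sem1, was at 456 and 598 FPKM in 10p-HFSCs versus 1057 and 2463 in 48p-HFSCs. Its log2 difference was 1.63, with a standard error of 0.63 (limma adjusted p = 0.12). It was called higher with TPM (1.04), with quantile normalization (1.01), with libraries scaled to the median of the proteasome genes (1.68) and without replicate 1 of 48p-HFSCs (2.23), but not without replicate 2 (1.02, limma adjusted p = 0.15). Pomp, the chaperone of the beta ring, was at 310 and 376 FPKM in 10p-HFSCs versus 257 and 437 in 48p-HFSCs (-0.028, limma adjusted p = 0.97).

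The related genes that were called besides Nfe2l1 act on the assembled proteasome. AI314180, which encodes ECM29 (Ecpas), a scaffold that ties the core to the 19S particle, fell from 41.6 and 34.5 in 10p-HFSCs to 8.87 and 11.4 in 48p-HFSCs. Its log2 difference was -1.81 (standard error 0.27, limma adjusted p = 0.0083). Ubqln2, which encodes a shuttle that carries ubiquitinated proteins to the proteasome, rose from 0.125 and 0.153 in 10p-HFSCs to 17.0 and 13.8 in 48p-HFSCs. Its log2 difference was 3.84 (standard error 0.27, limma adjusted p = 0.00098), and on this scale it understates the change of so low a gene. Its relatives Ubqln1 and Ubqln4 had log2 differences of 0.14 and 0.27. Which related genes were called depended on the library left out. Without 1 library the log2 differences were -1.98 to -1.65 for AI314180, 3.70 to 3.99 for Ubqln2 and 1.39 to 1.51 for Nfe2l1. By function, the median log2 difference was 0.15 for 10 other subunits and bound factors, -0.26 for 10 genes of transcriptional control, -0.024 for 6 genes of ubiquitin and its E1 enzymes and -0.41 for 8 shuttle and segregase genes.

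**Figure D4:**
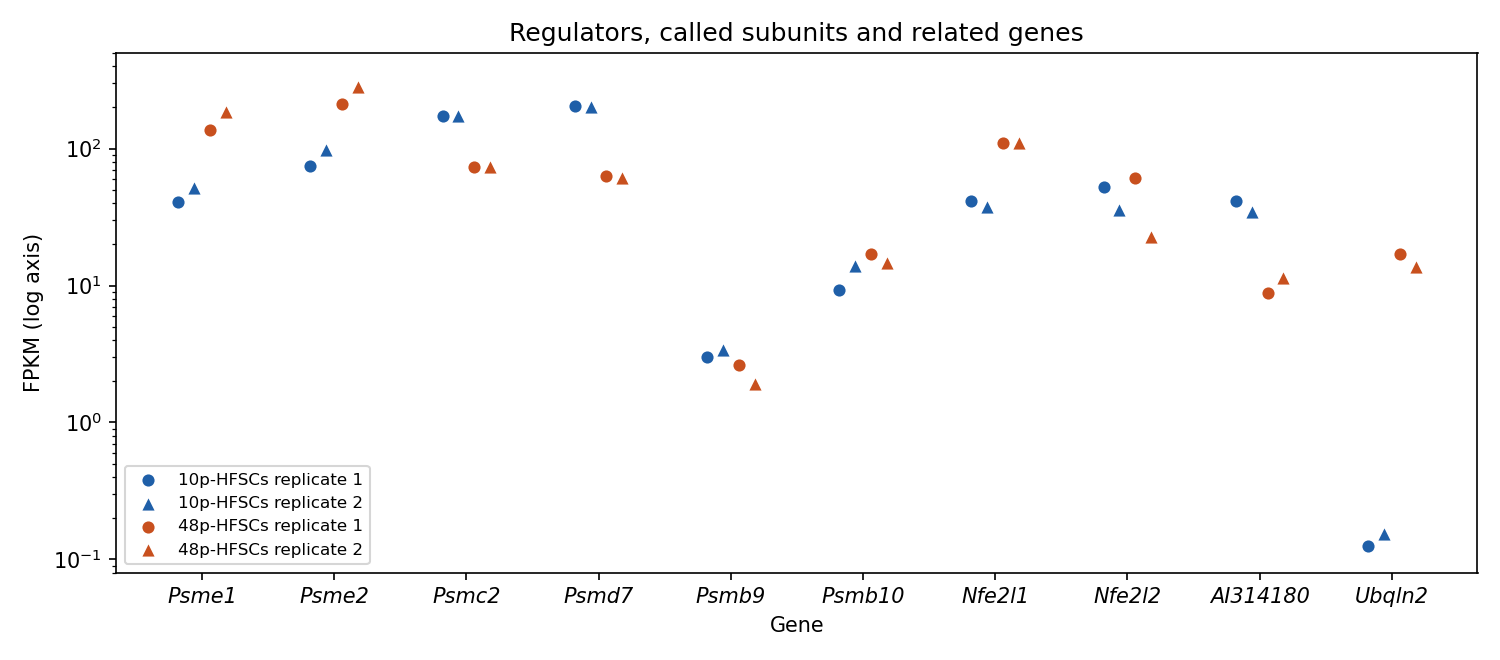
FPKM (vertical log axis) in each of the 4 libraries of the 4 proteasome genes that were called and of 6 related genes. Psme1, Psme2, Nfe2l1 and Ubqln2 are higher and Psmc2, Psmd7 and AI314180 lower in both 48p-HFSC libraries, while Nfe2l2 overlaps between the groups.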

How the data were processed

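RNA of 2 libraries of 10p-HFSCs and 2 of 48p-HFSCs was analysed from the FPKM values that the authors deposited, one per gene symbol and library. Per the labels, reads were mapped to mm10 with TopHat2 2.1.1, and the submitters' processing notes list Bowtie2 2.2.8, SAMtools 0.1.18 and Cuffdiff 2.2.1. The study's methods name other versions of Bowtie2 and SAMtools, and Cufflinks for the FPKM values. Which of these gave the values used here is not known. The annotation, the strand setting and the treatment of multi-mapped reads are not given in the sources used here. FPKM values are not counts, so no count test was run.

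Values were taken as log2(FPKM + 1), without further scaling, for genes that reached an FPKM of 1 in 2 or more libraries. The passages were compared by limma 3.58.1 (R 4.3.3, eBayes with a trend) over all 11018 genes, with Benjamini-Hochberg adjustment. GENCODE M21 (GRCm38) gave gene positions, transcript length and GC content, with a position for all 47 proteasome genes. Relative depth was taken from the most common ratio of low values between libraries. The fit was tested on simulated data. Other steps used Python 3.11.

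The proteasome genes, the related lists, the motifs and the markers were chosen with earlier results of these data known. Genes were named with values in every library by a rule: those called, the catalytic subunits, caps and inhibitor, those failing the filter, the extremes of each class, and among related genes those called, the immunoproteasome, Nfe2l1, Nfe2l2 and Pomp. Psmc1, Psmd5, Psmd12, Psmd14, Psmg1, Psmg2, Psmc3ip, Shfm1, Ubqln1, Ubqln4 and the markers given with values were named after their values were seen. Alternatives were a pseudocount of 0.1, other filters, TPM, median-of-ratios and quantile scaling, a correction by splines of transcript length and GC content with 4 degrees of freedom each, a constant variance prior, an adjusted p under 0.1, no limit on the fold, a replicate block and leaving out each library.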

Additional observations from a re-analysis of the deposited data

How the results depend on the processing

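Psmd7 and Psmc2 stayed called lower and Psme1 higher in every setting that kept both 10p-HFSC libraries. A library left out leaves a group of 1, whose spread is assumed to be that of the other group. TPM moved the median of all genes to -0.55 and that of the proteasome genes to -0.55. The latter minus the former was then -0.0090, against 0.057 as deposited. Quantile normalization moved the median of the proteasome genes to -0.34. The cause was not tested for any of these changes. Proteasome genes called higher, 2 as reported, were 1 with TPM (2.27%, against 5.63% of all genes), 1 with the length and GC correction (2.27% against 11.8%), 4 with the replicate block (9.09% against 14.6%) and 6 with libraries scaled to the median of the proteasome genes (13.6% against 11.4%), which was chosen after seeing the data. Those called lower, 2 as reported, were 7 with TPM (15.9% against 7.44%), 5 with quantile normalization (11.4% against 11.4%), 5 with the length and GC correction (11.4% against 9.88%) and 5 when the replicate block was added to it (11.4% against 12.2%). The share of proteasome genes called lower thus lay below that of all genes as deposited and above it with TPM. Leaving out 1 library gave 0 to 8 higher and 0 to 3 lower, and a median from -0.26 to 0.27. The 8 higher, without replicate 1 of 48p-HFSCs, were 18.2% against 17.6% of all genes. The 3 lower, without replicate 2 of 48p-HFSCs, were 6.82% against 6.96%. The 0 values came without either 10p-HFSC library, where 0.318% and 0.327% of all genes were called higher and 1.27% and 1.33% lower. Over all genes, 1189 higher and 1008 lower as reported, TPM gave 620 higher, no filter 637 lower and the scaling to proteasome genes 625 lower, and leaving out 1 library gave 35 to 1936 higher and 140 to 1875 lower. Of the 36 related genes tested, those called higher, 2 as reported, were 4 with the replicate block and 4 with the scaling to proteasome genes. Over all genes the shares called higher were 10.8% as reported, 14.6% and 11.4%. Related genes called lower, 1 as reported, were 3 with TPM and 3 with quantile normalization. The shares of all genes called lower were 9.15% as reported, 7.44% and 11.4%. Related genes called lower were 2 with the length and GC correction (9.88% of all genes) and 2 with the replicate block added to it (12.2%). They were also 2 without the fold limit (9.54%) and 2 with the replicate block alone (13.6%). Which related genes were called also changed with the library left out.

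Same-numbered libraries deviated together with a correlation of 0.408 across genes, but 2 pairs do not show that the numbers pair the samples. With the replicate block 7 proteasome genes were called, or 15.9% against 28.2% of all genes, adding Psmd4, Psmd8 and Psmc1.

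Among the proteasome genes tested and the related genes named with a value, none of the values that changed sign passed the test. With TPM 15 proteasome genes changed sign, namely Psma2 (-0.11), Psma5 (-0.051), Psma7 (-0.25), Psmb1 (-0.34), Psmb2 (-0.58), Psmb3 (-0.040), Psmb5 (-0.11), Psmb6 (-0.51), Psmc3 (-0.23), Psmc3ip (-0.027), Psmc6 (-0.051), Psmd3 (-0.57), Psme3 (-0.37), Psme4 (-0.54) and Psmg2 (-0.032), as did Psmb10 (-0.098), Ubqln1 (-0.43) and Ubqln4 (-0.29). With quantile normalization they were Psma7 (-0.19), Psmb1 (-0.28), Psmb2 (-0.47), Psmb6 (-0.37), Psmd3 (-0.39) and Psme4 (-0.099). With the length and GC correction, with or without the replicate block, they were Psma7 (-0.092), Psmb2 (-0.54), Psmb3 (-0.11), Psmb5 (-0.15), Psmb6 (-0.59), Psmd3 (-0.16), Psmb10 (-0.034) and Pomp (0.20), and with the scaling to proteasome genes Pomp (0.026). Without 1 library the ranges were -0.43 to 0.13 for Psma4, -0.22 to 0.71 for Psmb1, -0.35 to 0.36 for Psmb2, -0.089 to 1.18 for Psmb3, -0.19 to 0.34 for Psmb6, -0.41 to 0.44 for Psmd3, -0.67 to 0.076 for Psmd9, -0.40 to 0.072 for Psmd14, -0.10 to 0.16 for Psme4, -0.90 to 0.50 for Nfe2l2, -0.41 to 0.36 for Pomp and -0.017 to 0.29 for Ubqln1.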
